A study of Homo sapiens with 29 samples.

Results

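RUBCNL and 8 further autophagy genes (BECN1, ULK1, MAP1LC3B, GABARAPL1, GABARAPL2, SQSTM1, LAMP1 and TFEB) were followed after R406 treatment in DHL4 and DHL6, established human lines of diffuse large B-cell lymphoma. They are 9 of the 12165 genes that had a probe set of their own on the array, and all 20 probe sets annotated to them alone were used. RUBCNL was selected on measured values, as one of the strongest early risers by the mean of both lines' differences from DMSO. That mean was 2.22 on the log2 scale at 2 h, rank 3 of all genes, between CXCR4 at 2.45 and KANK2 at 2.01. At 6 h it was 2.71, rank 2, between KANK2 at 2.73 and CXCR4 at 2.48. These values chose the gene, so its differences from DMSO are given below as a description without a test. The other 8 genes were listed as autophagy genes and were tested.

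R406 inhibits SYK, the tyrosine kinase that relays signals of the B-cell receptor, a surface receptor on which many lymphomas of this type depend. The treated groups of each line had 1 µM R406, with times of 2, 6, 24 and 48 h, and the control groups had DMSO, the solvent. This gave 10 groups on 29 arrays, with 3 arrays a group except DHL4 in DMSO, which had 2. The DMSO arrays carry no time in their labels, although the design text lists times for solvent and R406 alike. All 4 times of a line were therefore compared with the same DMSO arrays, so the time of treatment and the time in culture cannot be told apart, and comparisons within a line share their controls. Whether replicate arrays stem from separate cultures is not stated, so p-values reflect only how far these arrays scatter, possibly for technical reasons. Each line is a single established line and stands for itself.

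Macroautophagy encloses cytoplasm in a double membrane, the autophagosome, which fuses with the lysosome for degradation of its content. The ULK1 kinase complex starts the process and the class III PI3-kinase complexes around BECN1 mark the growing and maturing membrane, where RUBCNL (also called Pacer) counteracts the inhibitor RUBCN. ATG8 proteins (MAP1LC3B and the GABARAP group) are coupled to the membrane lipid and bind receptors such as SQSTM1, which carry cargo. LAMP1 is a glycoprotein of the lysosomal membrane, and TFEB is the transcription factor best known for switching on lysosomal and autophagy genes. Transcript levels do not measure the flux through this pathway, and no flux was measured here.

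Levels are log2 values on the RMA scale, on which dim probe sets are drawn together near the lower end, so that differences of dim genes are understated. The levels of different probe sets are not compared with each other. Pairs of arrays of 1 group correlated at r between 0.978 and 0.996. The upper quartile of the log2 values was between 4.79 and 4.96 on 4 arrays (DHL4 at 2 h replicate 3, DHL6 at 6 h replicate 3, DHL6 at 48 h replicates 1 and 3) and between 5.06 and 5.34 on the others. Values without these 4 arrays are given beside many of the results, but not beside all. Where a comparison holds none of them, its difference is unchanged and only the shared estimate of the spread differs. Of the B-cell markers, MS4A1, CD79A and CD79B were at 8.16 or above on every array, while the PAX5 probe set was dim, at 3.36 or below. The germinal centre markers BCL6 and MME were above 5 on every array. All 4 T-cell markers and both measured monocyte and macrophage markers were at 3.53 or below, as were COL1A2, COL3A1 and CDH5. COL1A1 reached 3.70 and PECAM1 reached 7.77 in DHL4 and 3.13 in DHL6. In a bulk RNA sample, fewer cells that express a gene and less of its RNA per cell cannot be told apart.

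The promoters are shown for RUBCNL, the gene with the largest rise among the 9, and for LAMP1, whose promoter holds the motif that TFEB is known to bind. RefSeq (GRCh38.p14) gave 14 promoters for the 9 genes, each from 250 bases before to 50 after an annotated start. They were searched on both strands for the E-box CACGTG, which is the core of TFEB sites, for the FOXO motif GTAAACA and for the cyclic AMP response element TGACGTCA. Matches are in capitals.
RUBCNL, chr13:46387203-46387502, minus strand: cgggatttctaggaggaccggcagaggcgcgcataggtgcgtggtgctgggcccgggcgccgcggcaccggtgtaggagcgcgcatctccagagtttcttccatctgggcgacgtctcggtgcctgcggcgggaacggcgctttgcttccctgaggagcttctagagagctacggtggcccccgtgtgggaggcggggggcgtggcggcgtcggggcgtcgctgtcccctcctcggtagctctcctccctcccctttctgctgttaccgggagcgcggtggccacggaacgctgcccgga
RUBCNL, chr13:46389993-46390292, minus strand: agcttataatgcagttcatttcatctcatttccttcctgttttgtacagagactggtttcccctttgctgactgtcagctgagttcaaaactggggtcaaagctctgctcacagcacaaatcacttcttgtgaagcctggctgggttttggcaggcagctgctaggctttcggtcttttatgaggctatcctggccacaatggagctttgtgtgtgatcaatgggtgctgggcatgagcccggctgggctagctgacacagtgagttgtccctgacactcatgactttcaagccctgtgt
LAMP1, chr13:113296989-113297288, plus strand: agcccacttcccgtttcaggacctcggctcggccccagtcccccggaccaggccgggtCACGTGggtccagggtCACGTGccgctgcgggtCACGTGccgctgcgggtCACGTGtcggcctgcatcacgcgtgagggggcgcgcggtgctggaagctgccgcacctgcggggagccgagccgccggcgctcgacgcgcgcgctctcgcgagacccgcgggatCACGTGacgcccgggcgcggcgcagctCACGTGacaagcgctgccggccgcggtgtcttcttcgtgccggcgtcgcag
The LAMP1 promoter held 6 copies of CACGTG, and it was the only 1 of 35116 RefSeq promoters of this length with at least 6. In all, 7.26% of the promoters held CACGTG. Neither RUBCNL promoter held any of the 3 motifs. GABARAPL1 had 1 TGACGTCA in its promoter, a motif found in 1.85% of promoters, and GTAAACA, found in 3.42%, was in none of the 14. These matches describe the letters of the windows and do not show that a factor binds there.

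RUBCNL rose early and far in both lines, and its course then differed between them. In DHL4 its level on probe set 219471_at was 7.09 and 7.17 on the 2 DMSO arrays, then 10.25, 10.24 and 10.02 at 2 h and 10.77, 10.68 and 10.81 at 6 h. It was 11.44, 11.44 and 11.47 at 24 h and 9.02, 9.07 and 9.09 at 48 h. Every R406 array lay above both DMSO arrays, and no 2 of the 5 groups of DHL4 overlapped. In order, the levels ran from DMSO through 48 h, 2 h and 6 h to 24 h. In DHL6 the DMSO arrays were at 8.36, 8.45 and 8.35, followed by 9.71, 9.81 and 9.87 at 2 h, 10.23, 10.21 and 10.09 at 6 h and 10.68, 10.76 and 10.76 at 24 h. At 48 h the DHL6 arrays were at 10.69, 10.14 and 10.76. All R406 arrays of DHL6 again lay above DMSO, and the 48 h group overlapped the 24 h group through its replicates 1 and 3 and the 6 h group through its replicate 2.

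Relative to DMSO, RUBCNL in DHL4 was 8.23-fold higher at 2 h, 12.3-fold at 6 h, 20.0-fold at 24 h and 3.82-fold at 48 h. These are log2 differences of 3.04, 3.62, 4.32 and 1.93, each with an SE of 0.13. In DHL6 the differences were smaller up to 24 h, at 1.41, 1.79, 2.34 and 2.14 with an SE of 0.11, or 2.65-fold, 3.46-fold, 5.07-fold and 4.42-fold. Ranked among all genes by the difference from DMSO, RUBCNL stood at 2, 2, 17 and 7 in DHL4 and at 25, 16, 25 and 27 in DHL6. The DHL6 value at 48 h was 1.75 without the 2 arrays of low upper quartile and 2.34 without replicate 2. The second probe set, 44790_s_at, gave 2.64, 3.26, 3.89 and 1.57 in DHL4 and 1.28, 1.63, 2.13 and 2.00 in DHL6. The probe sets correlated at r = 0.997 over the 29 arrays after each line's mean was subtracted.

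**Figure D1:**
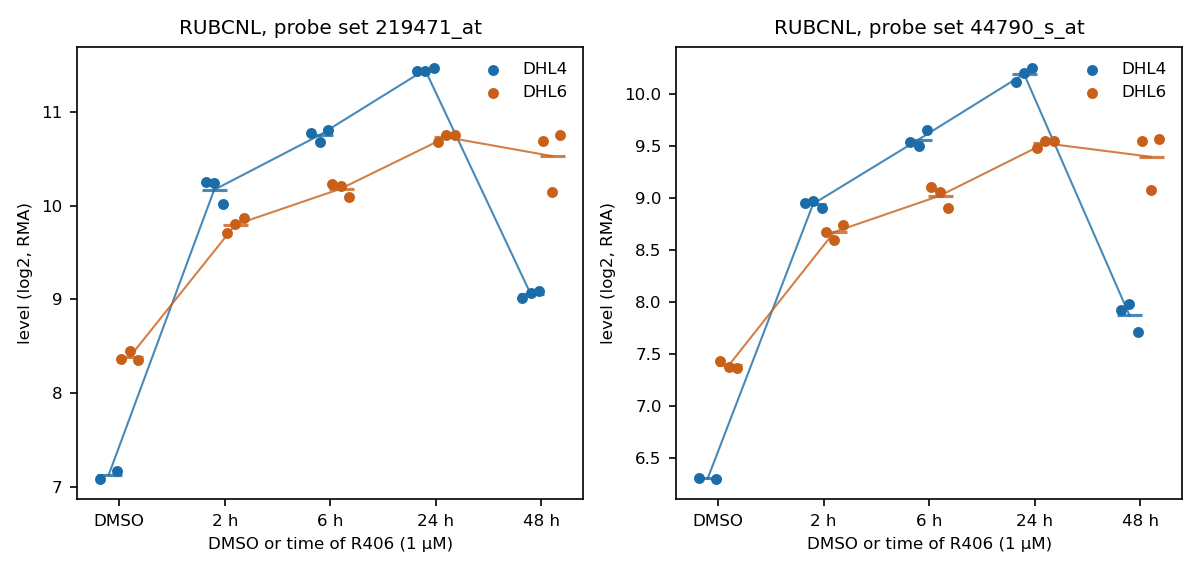
Level of RUBCNL (log2, RMA) on each array against DMSO or time of 1 µM R406, for probe sets 219471_at (left) and 44790_s_at (right); points are arrays, horizontal marks are group means and lines join them. The DHL4 points climb from 7.13 in DMSO to 11.45 at 24 h and drop to 9.06 at 48 h on the left panel, while the DHL6 points stay near 10.53 at 48 h.

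The late part of this course used R406 arrays that did not serve to pick the gene, and it was tested. From 24 to 48 h RUBCNL fell by 2.39 ± 0.11 (SE) in DHL4, which is 5.24-fold (adjusted p = 2.97e-14, limma with Benjamini-Hochberg adjustment over all 22215 probe sets). In DHL6 the same difference was -0.20 ± 0.11 with an adjusted p of 0.346. Without the 4 arrays of low upper quartile, which include 2 of the 3 DHL6 arrays at 48 h, it was -0.59 ± 0.10 with an adjusted p of 0.00249 (-0.45 and 0.0397 on 44790_s_at), and replicate 2 is then the lone 48 h array. The DHL6 value at 48 h thus depends on which arrays are kept, whereas the drop in DHL4 was between -2.42 and -2.33 in all alternatives run. The order of the lines also turned. RUBCNL in DHL6 minus that in DHL4 was -0.72 ± 0.11 at 24 h (adjusted p = 1.39e-05) and 1.47 ± 0.11 at 48 h (adjusted p = 1.75e-10, and 1.08 without the 4 arrays). Its level in DMSO was 1.26 ± 0.13 higher in DHL6. As a description, the response of DHL6 minus that of DHL4 was -1.63 at 2 h, -1.83 at 6 h and -1.98 at 24 h, each ± 0.17. At 48 h the difference was 0.21 ± 0.17 with all arrays and -0.18 ± 0.13 without the 4 arrays.

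Of the other 8 genes, 4 were called higher in DHL4 at 24 h and at most 1 at any other time of either line. TFEB was lower than DMSO at every time. A gene was called at an adjusted p below 0.05 in limma, on its probe set of highest mean. In DHL4 at 2 h, 1 of 8 was called higher (2.56% of all genes) and 1 lower (6.62%). At 6 h it was 1 higher (6.24%) and 2 lower (6.18%), at 24 h 4 higher (12.8%) and 1 lower (16.3%), and at 48 h 0 higher (3.38%) and 1 lower (3.70%). In DHL6, 1 was called higher (2.03%) and 1 lower (3.01%) at 2 h, then 0 higher (2.98%) and 3 lower (4.91%) at 6 h. The counts were 1 higher (6.02%) and 3 lower (7.96%) at 24 h, and 1 higher (8.08%) and 2 lower (14.6%) at 48 h. These are counts of few genes with no test of them as a set, and the single genes are described in turn. Of the 31 calls that limma made for members against DMSO and from 24 to 48 h, 16 held in every alternative run. Leaving out either DHL4 DMSO array leaves 1 control array and widens the SE. A call can then be lost although the difference keeps its size.

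**Figure D2:**
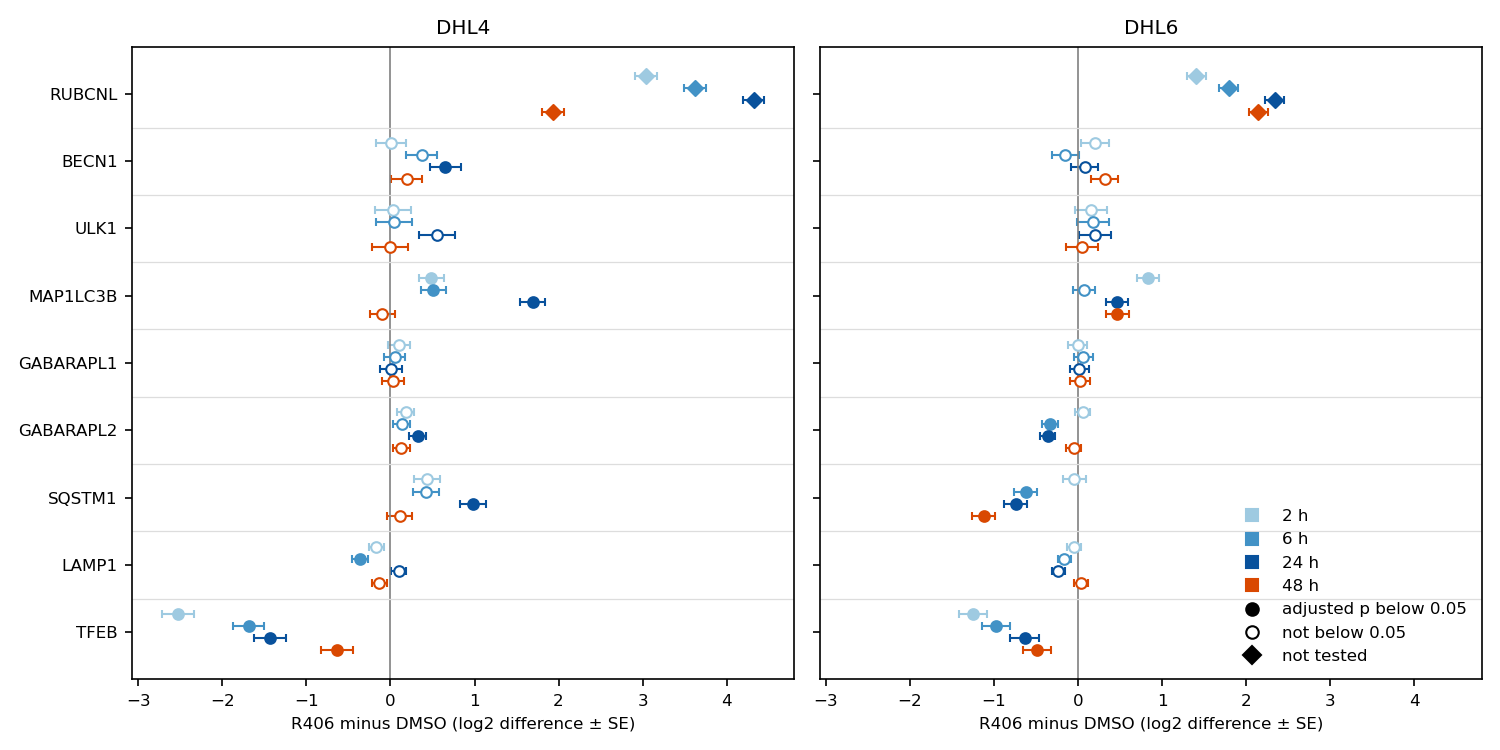
Log2 difference of R406 minus DMSO (± SE) of the 9 genes at 2, 6, 24 and 48 h in DHL4 (left) and DHL6 (right); filled circles mark an adjusted p below 0.05, open circles those not below it, and diamonds the untested RUBCNL. RUBCNL lies farthest to the right in both lines. TFEB lies farthest to the left at all times in DHL4 and at 2 and 6 h in DHL6, where SQSTM1 lies farther left at 24 and 48 h, and SQSTM1 and GABARAPL2 lie on opposite sides of 0 at 24 h in the 2 lines.

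TFEB, the transcription factor, fell within 2 h in both lines and then climbed back in part, in DHL6 only on its brighter probe set. On probe set 50221_at the DMSO arrays of DHL4 were at 7.15 and 6.89. The level was 4.44, 4.28 and 4.75 at 2 h, 5.47, 5.31 and 5.20 at 6 h, 5.52, 5.70 and 5.53 at 24 h and 6.59, 6.54 and 6.02 at 48 h. All R406 arrays of DHL4 lay below both DMSO arrays. The differences were -2.53, -1.69, -1.43 and -0.63, each ± 0.19, so that TFEB was 5.76-fold lower at 2 h and ranked 8 from the lowest of all genes. Their adjusted p-values in limma were 1.21e-09, 4.4e-07, 1.19e-06 and 0.044. In DHL6 the DMSO arrays were at 7.98, 7.91 and 7.90, and the level was 6.45, 6.61 and 6.97 at 2 h and 7.07, 7.10 and 6.68 at 6 h. It was 7.55, 7.22 and 7.11 at 24 h and 7.54, 7.61 and 7.15 at 48 h, below DMSO on every array. The differences of DHL6 were -1.25, -0.97, -0.64 and -0.49, each ± 0.17, with adjusted p-values of 2.07e-05, 0.000299, 0.0116 and 0.0411.

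The early fall of TFEB was the firm part of its course. At 2 and 6 h in both lines, and at 24 h in DHL4, the calls held in every alternative. The call at 24 h in DHL6 was lost without replicate 2 (adjusted p = 0.0502) or replicate 3 (adjusted p = 0.0734) of that group. At 48 h in DHL6 it was lost without each of 5 single arrays, with adjusted p-values from 0.0561 to 0.211. It was also lost after quantile normalization (-0.30, adjusted p = 0.226). Without the 4 arrays, which leaves 1 DHL6 array at 48 h, the difference was -0.31 and was not called. The TFEB call at 48 h in DHL4 was lost without replicate 3 at 48 h (-0.45, adjusted p = 0.253). It was also lost without DMSO replicate 1 (-0.50) or 2 (-0.76), which leaves 1 control array. The dimmer probe set 221866_at was lower than DMSO at every time, with differences of -1.17 to -0.21 in DHL4. In DHL6 its differences were -0.66, -0.50, -0.31 and -0.70 in time order, so at 48 h it had not climbed back. This probe set was called at 2, 6 and 24 h in DHL4 and at 2 and 48 h in DHL6. From 24 to 48 h TFEB on 50221_at rose by 0.80 ± 0.17 in DHL4 (adjusted p = 0.000751), and the difference was 0.15 ± 0.17 in DHL6 (adjusted p = 0.698). On 50221_at the response of DHL6 minus that of DHL4 was 1.28 ± 0.25 at 2 h (adjusted p = 0.007) and 0.79 ± 0.25 at 24 h (adjusted p = 0.0355), so the fall was deeper in DHL4 at these times. At 6 and 48 h it was 0.71 (adjusted p = 0.121, and 0.85 with 0.0265 without the 4 arrays) and 0.14 (adjusted p = 0.834). On 221866_at no such difference was called, with 0.51, 0.45, 0.43 and -0.49 in time order and adjusted p-values of 0.597, 0.503, 0.426 and 0.384.

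MAP1LC3B, the ATG8 protein known as LC3B, rose in both lines on different schedules. On probe set 208786_s_at its level in DHL4 was 9.27 and 9.0 in DMSO, 9.71, 9.64 and 9.50 at 2 h and 9.72, 9.58 and 9.64 at 6 h. It then reached 10.87, 10.88 and 10.73 at 24 h and was back at 9.03, 9.07 and 8.99 at 48 h. All arrays up to 24 h lay above DMSO, and those at 48 h overlapped it. The differences were 0.48, 0.51, 1.69 and -0.10, each ± 0.15, with adjusted p-values of 0.0445, 0.0248, 1.42e-09 and 0.889. At 24 h this is 3.23-fold. The calls at 2 and 6 h were lost without DMSO replicate 2 (0.35 and 0.37), which leaves 1 control array. They were also lost without other single arrays of the compared groups, with adjusted p-values of up to 0.112. From 24 to 48 h MAP1LC3B fell by 1.79 ± 0.13 in DHL4 (adjusted p = 9.52e-11).

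In DHL6, MAP1LC3B was at 8.33, 8.34 and 8.31 in DMSO and at 9.19, 9.06 and 9.23 at 2 h. It was 8.67, 8.58 and 7.95 at 6 h, 8.94, 8.75 and 8.68 at 24 h and 8.86, 8.63 and 8.90 at 48 h. Only the 6 h group overlapped DMSO, through the replicate 3 array of low upper quartile. The differences were 0.84, 0.07, 0.46 and 0.47, each ± 0.13, and the adjusted p-values 0.000173, 0.871, 0.0204 and 0.0125. Without the 4 arrays the 6 h difference was 0.30 (adjusted p = 0.0843). The 2 h call held in every alternative. The call at 24 h was lost without replicate 1 (0.39, adjusted p = 0.107) or any DMSO array. That at 48 h was lost without replicate 1 (adjusted p = 0.0504) or 3 (0.0582) alone. It was also lost without the 4 arrays (0.30), which leaves 1 array at 48 h. After centring on array medians the 24 and 48 h calls were lost (0.41, adjusted p = 0.0673, and 0.36, adjusted p = 0.0807). Probe set 208785_s_at followed the same course in DHL4 with 0.43, 0.40, 1.46 and -0.20, of which the first 3 were called (adjusted p = 0.00383, 0.0045 and 5.24e-12). In DHL6 it gave 0.48, -0.01, 0.32 and 0.03, so that the probe sets disagreed at 48 h. The rise at 24 h was larger in DHL4. The response of DHL6 minus that of DHL4 was -1.23 ± 0.20 on 208786_s_at (adjusted p = 6.81e-05) and -1.14 ± 0.13 on 208785_s_at (adjusted p = 3.04e-07).

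The other ATG8 genes among the 9 were GABARAPL2 and GABARAPL1. GABARAPL2, read by 209046_s_at, was at 9.05 and 9.10 in DHL4 DMSO and at 9.30, 9.51 and 9.39 at 24 h, a difference of 0.32 ± 0.10 (adjusted p = 0.0187). In DHL6 it went the other way, from 8.55, 8.56 and 8.63 in DMSO to 8.36, 8.30 and 8.08 at 6 h and 8.28, 8.18 and 8.20 at 24 h. In each of these comparisons the groups did not overlap. The DHL6 differences were -0.34 ± 0.09 at 6 h (adjusted p = 0.0217, and -0.25 with an adjusted p of 0.114 without the 4 arrays) and -0.36 ± 0.09 at 24 h (adjusted p = 0.00753). The DHL4 call at 24 h was lost without either DMSO array (0.30 and 0.35, with 1 control array left) or without replicate 2 (adjusted p = 0.0862). It was also lost after centring on array medians (0.23, adjusted p = 0.159) and when only the compared groups were fitted (adjusted p = 0.101). The DHL6 call at 6 h was lost without any DMSO array (0.0517 to 0.0961), without replicate 3 (0.171) or with only the compared groups (0.154). The difference of the responses was -0.68 ± 0.14 at 24 h (adjusted p = 0.000761) and -0.47 ± 0.14 at 6 h (adjusted p = 0.0415, and 0.0812 without the 4 arrays).

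GABARAPL1 gave no reading clear of the lower end of the scale on its own probe sets, which ranged from 2.61 to 3.11 (208868_s_at) and from 2.31 to 3.01 (208869_s_at) over the 29 arrays. The only call against DMSO was on 208869_s_at in DHL4 at 24 h, with 0.42 ± 0.14 (adjusted p = 0.0297). A further probe set, 211458_s_at, is annotated to both GABARAPL3 and GABARAPL1 and cannot be assigned to either. It was at 2.74 and 2.59 in DHL4 DMSO and at 5.21, 5.41 and 3.61 after 24 h, a difference of 2.08 ± 0.29 (adjusted p = 3.27e-06). At 48 h it was back at 2.78, 2.74 and 3.03. In DHL6 it stayed between 2.41 and 3.35 in all groups. Replicate 3 at 24 h stood well below replicates 1 and 2, and the same array had the lowest ULK1 level of its group.

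SQSTM1, the cargo receptor that is itself degraded by autophagy, went in opposite directions in the lines. In DHL4 its level on 201471_s_at was 5.72 and 5.18 in DMSO, 5.81, 5.94 and 5.91 at 2 h and 6.10, 5.72 and 5.79 at 6 h. It was 6.52, 6.27 and 6.50 at 24 h and 5.66, 5.61 and 5.40 at 48 h. Only the 2 and 24 h groups lay wholly above DMSO. The difference at 24 h was 0.98 ± 0.15, or 1.97-fold (adjusted p = 1.28e-05), and those at 2, 6 and 48 h were 0.44, 0.42 and 0.11 with adjusted p-values of 0.0836, 0.0889 and 0.878. Without DMSO replicate 1, which leaves 1 control array, the values at 2 and 6 h were 0.70 and 0.69. In DHL6 the DMSO arrays were at 6.76, 6.84 and 6.72 and the 2 h arrays at 6.87, 6.70 and 6.63. SQSTM1 then fell to 6.24, 6.09 and 6.13 at 6 h, 6.02, 6.13 and 5.95 at 24 h and 5.38, 5.66 and 5.92 at 48 h, below every DMSO array.

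The differences of SQSTM1 in DHL6 were -0.04, -0.62, -0.74 and -1.12, each ± 0.14, and the last 3 had adjusted p-values of 0.00365, 0.000375 and 1.21e-06. These calls, and that at 24 h in DHL4, held in every alternative. The DHL6 values at 6 and 48 h were -0.61 and -1.12 without the 4 arrays. The responses differed by -1.04 ± 0.20 at 6 h (adjusted p = 0.00173), -1.72 ± 0.20 at 24 h (adjusted p = 9.25e-07) and -1.23 ± 0.20 at 48 h (adjusted p = 0.00063). Without the 4 arrays the values at 6 and 48 h were -1.03 (adjusted p = 0.00182) and -1.23 (adjusted p = 0.00509). In DMSO, SQSTM1 was 1.33 ± 0.15 higher in DHL6 than in DHL4 (adjusted p = 2.8e-07), so the lines started apart and their levels at 48 h differed by 0.09 ± 0.14 (adjusted p = 0.672). The other 3 SQSTM1 probe sets were dim, at 3.53 or below on every array, and none was called against DMSO.

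**Figure D3:**
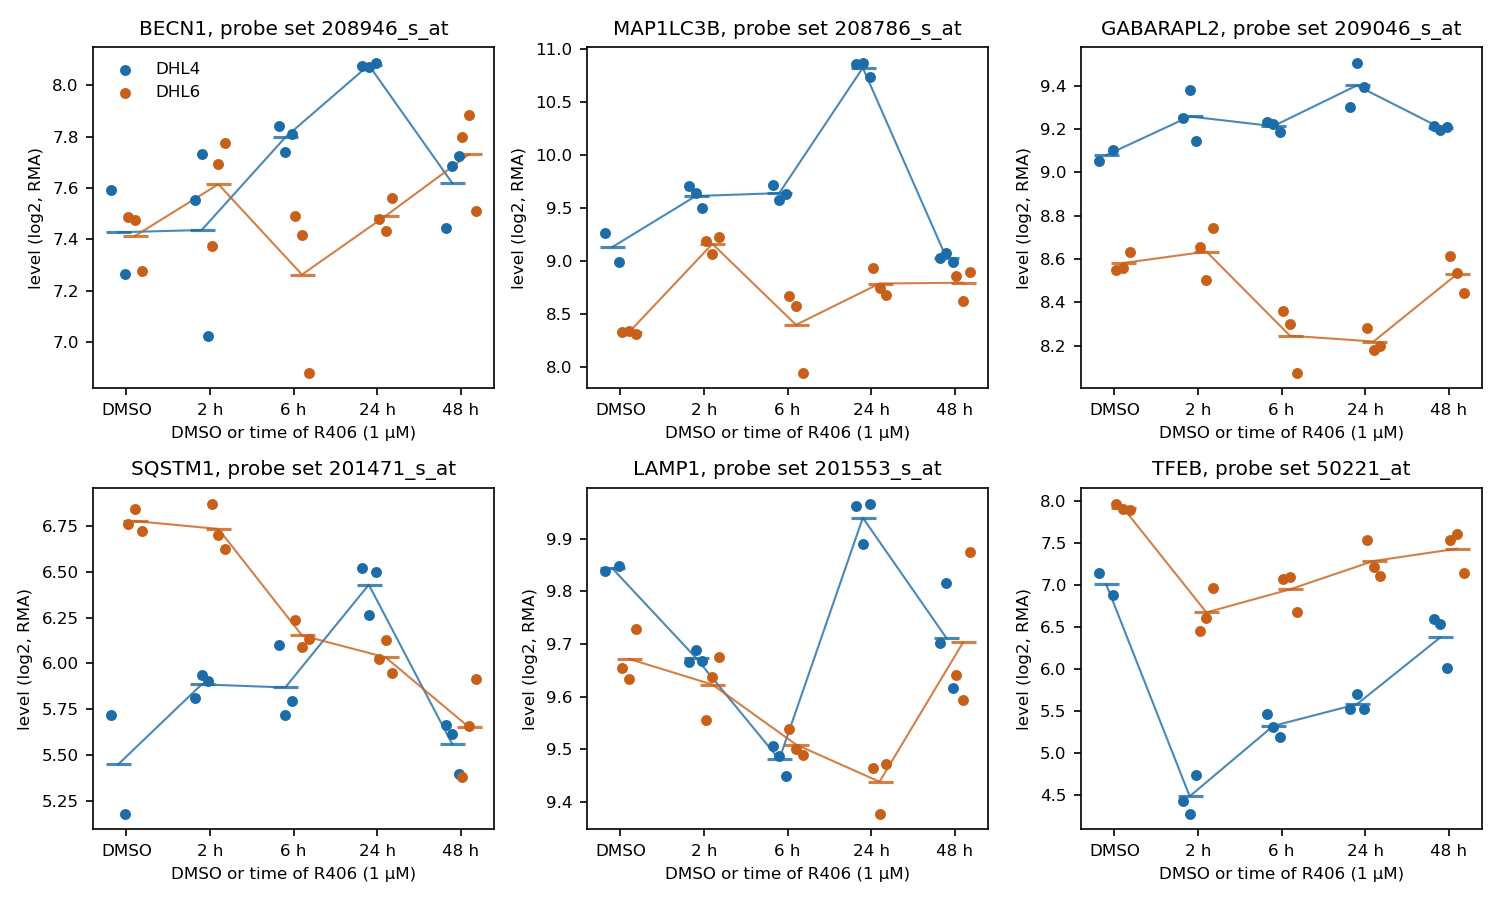
Level (log2, RMA) of BECN1, MAP1LC3B, GABARAPL2, SQSTM1, LAMP1 and TFEB on each array against DMSO or time of 1 µM R406; points are arrays, horizontal marks are group means and lines join them, and each panel has its own scale. TFEB drops at 2 h in both lines, MAP1LC3B peaks at 24 h in DHL4, and SQSTM1 in DHL6 goes down from a mean of 6.78 in DMSO to 5.65 at 48 h.

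BECN1, the regulatory subunit of the class III PI3-kinase with which RUBCNL works, rose in DHL4 at 24 h. On 208946_s_at the DMSO arrays were at 7.59 and 7.26, and the 24 h arrays at 8.08, 8.07 and 8.09. The difference was 0.65 ± 0.18 (adjusted p = 0.00746). Without DMSO replicate 2, which leaves 1 control array, it was 0.49 and was not called. Probe set 208945_s_at gave 0.83 ± 0.18 at 24 h (adjusted p = 0.000709) and 0.63 ± 0.18 at 6 h (adjusted p = 0.0206), where 208946_s_at gave 0.37 ± 0.18 (adjusted p = 0.277). In DHL6 the differences on 208946_s_at were 0.20, -0.15, 0.08 and 0.32, each ± 0.16, and none was called on either probe set.

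ULK1, the kinase that starts autophagosome formation, was between 2.63 and 3.79 on every array, near the lower end of the scale. None of its differences from DMSO was called. Its highest values were 3.70 and 3.79 on replicates 1 and 2 of DHL4 at 24 h, with replicate 3 at 2.77, so the difference of 0.55 ± 0.22 had an adjusted p of 0.0625. Without replicate 3 it was 0.88 with an adjusted p of 0.000366.

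LAMP1, the lysosomal membrane protein, moved little on its brightest probe set. On 201553_s_at it was between 9.38 and 9.97 over all 29 arrays. The only call against DMSO was at 6 h in DHL4, where 9.84 and 9.85 in DMSO compared with 9.51, 9.49 and 9.45, a difference of -0.36 ± 0.09 (adjusted p = 0.00794). Without DMSO replicate 1 or 2, which leaves 1 control array, the difference of LAMP1 was -0.37 or -0.36 and was not called. Its other 3 probe sets were not called against DMSO at any time. The brightest of these, 201552_at, nevertheless had lower means than DMSO throughout. In DHL4 it went from 6.68 in DMSO to 6.21, 6.0, 6.24 and 6.21 in time order. All these R406 arrays were at 6.34 or below and both DMSO arrays at 6.50 or above. The DHL6 means were 6.19 in DMSO and then 5.94, 5.85, 5.81 and 5.76. Over both lines and all times its differences from DMSO on 201553_s_at lay between -0.36 and 0.10. The promoter of this gene, shown above, is the one with 6 copies of the E-box.

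Between 24 and 48 h in DHL4 most of the other 8 genes were called. BECN1, ULK1, MAP1LC3B, SQSTM1 and LAMP1 were called lower at 48 h than at 24 h and TFEB higher, which is 6 of 8, against 24.6% of all genes called in either direction. The differences were -0.46, -0.56, -1.79, -0.87 and -0.23, in that order, and 0.80 for TFEB. Those of MAP1LC3B and SQSTM1 and the rise of TFEB held in every alternative, while the calls of BECN1, ULK1 and LAMP1 were lost in 1 or more of those that left out 1 array, with adjusted p-values of up to 0.247. The other BECN1 probe set, 208945_s_at, was not called (-0.41, adjusted p = 0.0756). For ULK1, near the lower end of the scale, the 24 and 48 h groups overlapped. In DHL6 only GABARAPL2 was called on the probe sets of highest mean, against 6.49% of all genes. It was higher by 0.31 ± 0.09 (adjusted p = 0.0408), and the call was lost without single arrays, at up to 0.167. Without the 4 arrays, which leaves 1 DHL6 array at 48 h, the difference was 0.31. The second MAP1LC3B probe set, 208785_s_at, was called lower in DHL6, with -0.29 ± 0.08 (adjusted p = 0.0399), where 208786_s_at gave 0.01. At 24 h, DHL6 differed from DHL4 in 6 of 8 genes (30.9% of all genes), with TFEB higher and BECN1, MAP1LC3B, GABARAPL2, SQSTM1 and LAMP1 lower. The BECN1 difference was -0.59 on 208946_s_at (adjusted p = 0.00667) but -0.07 on 208945_s_at (adjusted p = 0.844). At 48 h DHL6 differed in 2 (28.4%), with TFEB higher by 1.06 ± 0.17 on 50221_at and a GABARAPL2 difference of -0.67 ± 0.09. The other TFEB probe set, 221866_at, gave 0.09 ± 0.18 at 48 h (adjusted p = 0.784). The DHL6 group at 48 h includes arrays of low upper quartile.

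The lines differed in the level of 4 of the 8 genes in DMSO (20.0% of all genes). TFEB and SQSTM1 were higher in DHL6, and MAP1LC3B (by -0.80 ± 0.15) and GABARAPL2 (by -0.50 ± 0.10) were lower. The response differed in 1 of 8 genes at 2 h (1.63% of all genes), 2 at 6 h (6.72%), 4 at 24 h (16.0%) and 1 at 48 h (4.70%). The 4 at 24 h were TFEB, whose fall was smaller in DHL6, and MAP1LC3B, GABARAPL2 and SQSTM1, whose responses were lower in DHL6.

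The wider pathway was taken from a list of 123 autophagy and lysosome genes in 10 subgroups, of which 108 were measured, 107 of them besides RUBCNL. In DHL4, 7 of the 107 were called higher and 6 lower at 2 h, 15 and 8 at 6 h, 30 and 16 at 24 h and 13 and 4 at 48 h. In percent these are 6.54 and 5.61, 14.0 and 7.48, 28.0 and 15.0, and 12.1 and 3.74, to be read against the shares of all genes above. The list was not matched by level to all genes. Dim genes, whose differences are understated, may be called less readily. The list's median differences were 0.02, 0.09, 0.13 and 0.03, those of all genes 0.0059, 0.0094, 0.03 and 0.0078. In DHL6 the counts were 7 higher and 6 lower at 2 h, 4 and 13 at 6 h, 12 and 17 at 24 h and 18 and 18 at 48 h, or 6.54% and 5.61%, 3.74% and 12.1%, 11.2% and 15.9%, and 16.8% and 16.8%. Its medians there were 0.07, 0.0012, 0.02 and 0.0040, beside 0.02, 0.01, 0.02 and 0.04 for all genes. More list genes were called higher than lower in DHL4 from 6 h on, and more lower than higher in DHL6 at 6 and 24 h. All genes also had more lower than higher calls in DHL6 at both times. Some counts rested on single arrays or on scaling. Without DHL4 DMSO replicate 2 the higher calls were 2, 6, 23 and 6 in time order, and without replicate 1 the lower calls at 24 h were 9. At 48 h in DHL6 the split was 22 higher and 9 lower after quantile normalization, 9 and 24 after centring on array medians, and 10 and 8 without the 4 arrays. At 2 h in DHL4 it was 14 and 5 after quantile normalization and 4 and 6 after centring, and in DHL6 11 and 6 after quantile normalization.

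**Figure D4:**
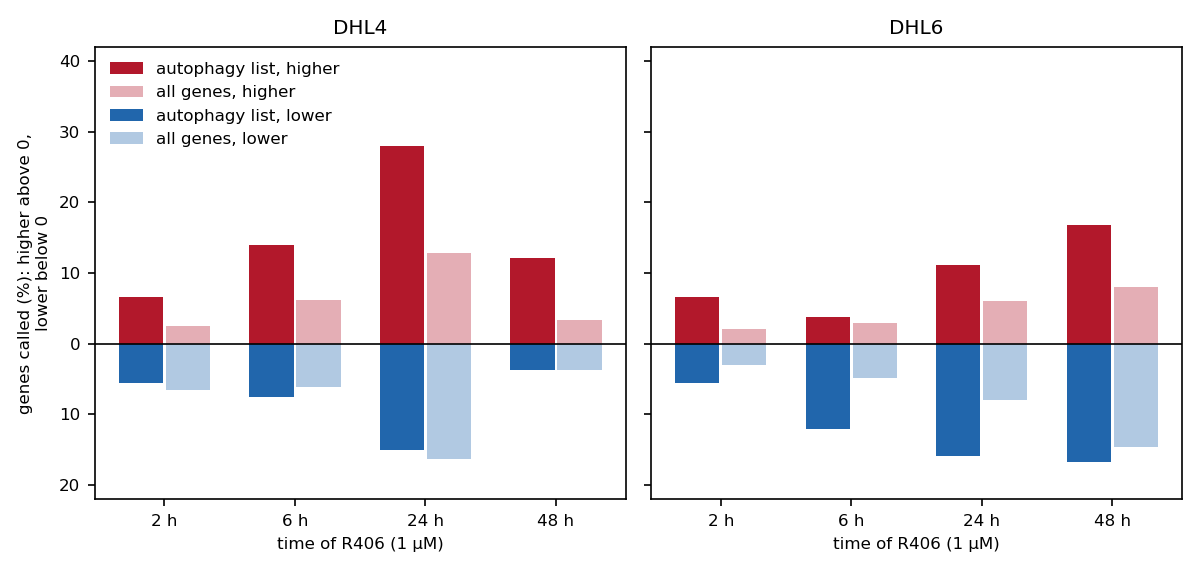
Percent of the 107 autophagy list genes (dark bars) and of all 12165 genes (pale bars) called higher (above 0) or lower (below 0) than DMSO at an adjusted p below 0.05, by time of 1 µM R406 in DHL4 (left) and DHL6 (right). In DHL4 at 24 h 28.0% of the list and 12.8% of all genes were called higher. In DHL6 at 6 h 12.1% of the list and 4.91% of all genes were called lower. The list was not matched by level to all genes.

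The subgroups of the membrane-building steps are described in turn, and differences between subgroups were not tested. Of the 9 measured genes of the class III PI3-kinase complexes other than RUBCNL, 3 were called higher and 0 lower in DHL4 at 6 h (6.24% and 6.18% of all genes) and 4 and 0 at 24 h (12.8% and 16.3%). PIK3C3, the catalytic subunit, was 1.23 ± 0.18 higher at 6 h and 1.17 ± 0.18 at 24 h in DHL4, and 0.67 ± 0.16 higher at 24 h in DHL6. RB1CC1, the scaffold of the ULK1 complex, was 0.92, 1.52 and 1.71 higher at 2, 6 and 24 h in DHL4, each ± 0.24, and 1.06 ± 0.21 at 2 h in DHL6. Its DHL6 differences at 6 and 24 h were called only without the 4 arrays (0.54, adjusted p = 0.0215, and 0.53, adjusted p = 0.00511). ATG101, another subunit of that complex, fell by 1.74 ± 0.33 in DHL4 at 24 h (adjusted p = 0.000192) and was not called in DHL6. At 6 h in DHL4 it differed by -0.96 (adjusted p = 0.0715, and 0.00428 without the 4 arrays). Among 7 genes of the ATG9, ATG2 and WIPI group, the lipid transfer protein ATG2A was 1.54 ± 0.17 higher at 24 h in DHL4 and 0.78 ± 0.15 in DHL6. WIPI2, which binds the lipid made by PIK3C3, was 1.08 ± 0.12 and 1.02 ± 0.12 higher at 6 and 24 h in DHL4. In DHL6 WIPI2 was not called with all arrays, and without the 4 arrays it was at 2 h (0.29, adjusted p = 0.0349) and 24 h (0.25, adjusted p = 0.0461). The 8 genes that couple ATG8 to lipid had 0 higher calls at all times in both lines, where 2.03% to 12.8% of all genes were called higher. With 8 genes, 0 calls is not far from these shares. In addition, ATG7, ATG10 and ATG16L1 were dim, at 3.97 or below on every array. There were 2 lower calls at 24 h in each line, where 16.3% of all genes in DHL4 and 7.96% in DHL6 were called lower. GABARAP, the bright ATG8 gene outside the 9, rose from 9.19 ± 0.11 (SD, n = 2) in DHL4 DMSO to 10.08 ± 0.07 (SD, n = 3) at 24 h, a difference of 0.89 ± 0.09 (adjusted p = 1.12e-08). In DHL6 it was 0.39 ± 0.08 higher at 24 h and 0.40 ± 0.08 at 48 h, both called, and 0.43 at 48 h without the 4 arrays. RUBCN, the inhibitor that RUBCNL counteracts, had differences from -0.74 to -0.06, of which none was called with all arrays. It was called lower without the 4 arrays in DHL4 at 48 h (-0.72, adjusted p = 0.0161) and in DHL6 at 2 h (-0.74, adjusted p = 0.00769). None of the 4 arrays is in these comparisons of RUBCN, nor in those of WIPI2, of ATG101, or of RB1CC1 at 24 h. Their differences are therefore unchanged, and only the shared estimate of the spread differs.

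Of the 11 cargo receptors, NBR1 and TAX1BP1, both relatives of SQSTM1 in function, were higher in both lines. NBR1 rose from a mean of 4.76 ± 0.19 (SD, n = 2) in DHL4 DMSO to 6.80 ± 0.20 (SD, n = 3) at 24 h, a difference of 2.04 ± 0.21, and in DHL6 by 1.22, 0.83, 1.57 and 0.80, each ± 0.19 and all called. NBR1 in DHL6 was 1.12 higher at 6 h and 0.85 at 48 h without the 4 arrays. TAX1BP1 was higher by 0.43 to 0.87 in DHL6 at all 4 times (0.65 at 48 h without the 4 arrays), and by 0.47 and 0.81 at 6 and 24 h in DHL4. At 6, 24 and 48 h in DHL6 both were called higher while SQSTM1 was called lower. BNIP3L, the mitophagy receptor, was 1.67 ± 0.14 higher in DHL4 at 24 h and 0.49 ± 0.13 in DHL6 at 2 h. PLEKHM1, an adaptor for fusion with the lysosome, was 1.39 ± 0.21 higher at 24 h and 1.01 ± 0.21 at 48 h in DHL4, and was not called in DHL6.

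Of 36 lysosomal genes measured, 11 were called higher and 6 lower in DHL4 at 24 h, beside 12.8% and 16.3% of all genes. In DHL6 1 was called higher and 10 lower at 24 h, beside 6.02% and 7.96%. The protease TPP1 was 2.02 ± 0.12 higher in DHL4 and 0.33 ± 0.11 in DHL6 at 24 h. The protease CTSC was lower at 2, 6 and 24 h in DHL4, with differences of -1.08, -1.67 and -1.90, each ± 0.12 (-0.97 at 2 h without the 4 arrays), and at all 4 times in DHL6, with differences of -0.65 to -0.33 (-0.40 at 48 h without the 4 arrays). CTSZ, another cathepsin, was lower at 2, 6 and 24 h in DHL6, with differences of -2.12, -2.60 (-2.71 without the 4 arrays) and -1.76 and an SE of 0.53, and its DHL6 DMSO arrays ranged from 4.65 to 6.48. Besides TFEB, the MiT/TFE factors TFE3, MITF and TFEC were dim, at 4.49 or below on every array, so their calls or lack of calls say little. With all arrays they had 0 calls in DHL4, where 2.56% to 16.3% of all genes were called in a given direction, depending on the time. TFE3 was called higher in DHL4 at 24 h (0.41, adjusted p = 0.0463) and 48 h (0.60, adjusted p = 0.0132) without the 4 arrays. None of the 4 is in these groups, so only the shared estimate of the spread changed. MITF was called in DHL6 at 48 h with 0.60 ± 0.19, and not without the 4 arrays (0.40, adjusted p = 0.276).

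Upstream, in the control by mTORC1, TSC1, which restrains mTORC1, was higher by 0.76, 1.02 and 1.19 at 6, 24 and 48 h in DHL4, each ± 0.19, and by 0.87 ± 0.17 at 2 h and 0.50 ± 0.17 at 48 h in DHL6. Without the 4 arrays its DHL6 difference at 48 h was 0.47 and no longer called, with 1 array left at 48 h. Its DHL6 call at 24 h was then made (0.51, adjusted p = 0.00174), although that comparison holds none of the 4 arrays. RHEB, which activates mTORC1, was lower at all 4 times in DHL4, with differences of -0.39, -0.37, -0.77 and -0.42, each ± 0.11, and at 24 h in DHL6, with -0.39 ± 0.10. Its DHL4 call at 2 h was lost without the 4 arrays (-0.31, adjusted p = 0.0603). DEPTOR, an inhibitor that binds mTOR, fell by 3.19 ± 0.14 in DHL4 at 24 h and was 1.00 ± 0.13 higher in DHL6. The difference of these responses was 4.19, with an adjusted p of 8.15e-14 in limma.

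**Figure D5:**
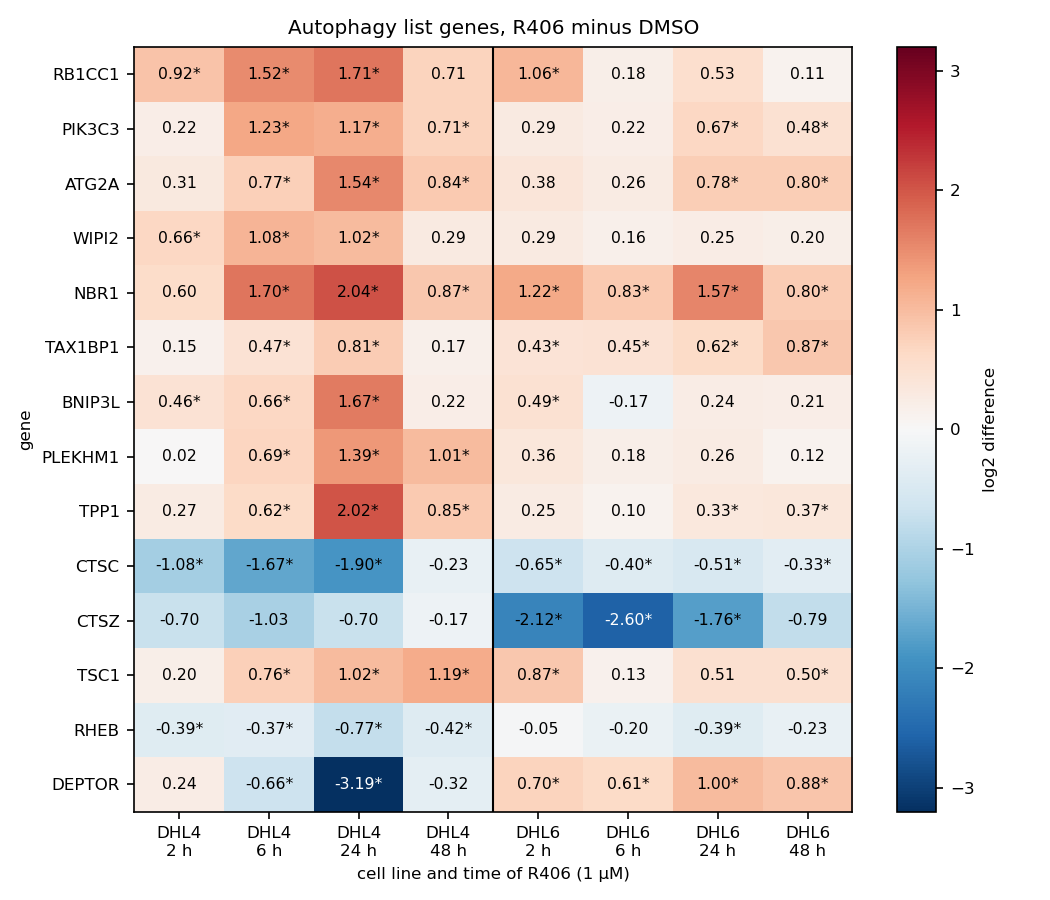
Log2 difference of R406 minus DMSO for the 14 list genes named by rule (rows) at each time in both lines (columns); the number is the difference, an asterisk marks an adjusted p below 0.05, and red and blue stand for higher and lower. NBR1 is red throughout and marked in 7 of 8 columns, and DEPTOR reaches -3.19 in DHL4 at 24 h.

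The genes whose levels went most closely with RUBCNL were not in the autophagy list. Likeness was Pearson's r over the 29 arrays after subtraction of each line's mean, and the arrays share the same treatment groups, so it is a description of the common time course. The highest r among 12164 genes were 0.987 for KANK2, 0.965 for CXCR4, 0.954 for KCTD7, 0.952 for SLC35E3 and 0.945 for RHOH. KANK2 is a regulator of the cytoskeleton and CXCR4 a chemokine receptor. KANK2 differed from DMSO by 2.55, 3.31, 4.28 and 1.81 in DHL4 and by 1.48, 2.15, 2.69 and 2.49 in DHL6, a course close to that of RUBCNL. The lowest r were -0.954 for IER2, -0.923 for SLC39A8, -0.910 for ZNF318, -0.908 for HMGCS1 and -0.908 for ARPC5L. Of the 8 other genes, MAP1LC3B had the highest r, 0.687, followed by BECN1 at 0.477 and ULK1 at 0.394. TFEB was at -0.639 and LAMP1 at -0.175. SQSTM1 and GABARAPL2 had r of 0.104 and 0.0879 over both lines, which was 0.795 and 0.753 over the 14 DHL4 arrays and -0.762 and -0.507 over the 15 DHL6 arrays.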

How the data were processed

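The series measured total RNA of the lines DHL4 and DHL6 on 29 Affymetrix HT human genome expression arrays. The deposited values are log2 expression per probe set, made by the authors with RMA, per the submitters' processing notes. Its version, and whether all arrays were normalized in 1 run, is not given in the sources used here. Probe sets were named from the platform annotation and updated by Entrez identifier. Of 22277, 62 were controls, 19724 had 1 symbol, 568 several and 1923 none. A gene stands on its single-symbol probe set of highest mean.

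One model of 10 group means was fitted to all 22215 probe sets and 29 arrays with limma 3.58.1 (R 4.3.3; lmFit, eBayes; 19 residual and 5.15 prior degrees of freedom), with Benjamini-Hochberg adjustment per contrast and a threshold of 0.05. No covariate was used. No 2 arrays were identical, and the number of arrays limits the precision. The fit was tested on simulated data. Figures were drawn with matplotlib.

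All members were named with every probe set. Of the wider list, genes called in 1 direction at 3 or more of 4 times in a line were named, up to 3 a subgroup by largest absolute mean difference. RUBCN, GABARAP, ATG101 and the MiT/TFE factors besides TFEB were added after their values were seen. The members, lists and rules were chosen with earlier results of these data known. Scaling, filters, the samples in the fit, estimation of the spread, a replicate block and each array left out were tried as alternatives, and leaving out the 4 arrays of low upper quartile was added after seeing the data.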

Additional observations from a re-analysis of the deposited data

Results flagged for a closer look

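The response to R406 differed between DHL4 and DHL6, by the test of the difference in limma with Benjamini-Hochberg adjustment, in 8 cases among the 8 tested genes and 4 times. Each value is the DHL6 response minus the DHL4 response on the log2 scale. TFEB differed by 1.28 ± 0.25 (SE) at 2 h (adjusted p = 0.007) and by 0.79 ± 0.25 at 24 h (adjusted p = 0.0355). These are values of the probe set of higher mean, on which TFEB was lower than DMSO on all R406 arrays of both lines, and the other TFEB probe set gave no called difference. MAP1LC3B differed by -1.23 ± 0.20 at 24 h (adjusted p = 6.81e-05) and was higher than DMSO in both lines. GABARAPL2 differed by -0.47 ± 0.14 at 6 h (adjusted p = 0.0415, and 0.0812 without the 4 arrays of low upper quartile) and by -0.68 ± 0.14 at 24 h (adjusted p = 0.000761). SQSTM1 differed by -1.04 ± 0.20 at 6 h (adjusted p = 0.00173), -1.72 ± 0.20 at 24 h (adjusted p = 9.25e-07) and -1.23 ± 0.20 at 48 h (adjusted p = 0.00063). At 24 h all DHL4 arrays of GABARAPL2 and SQSTM1 lay above DMSO and all DHL6 arrays below it.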

How the results depend on the processing

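The calls of TFEB at 2 and 6 h in both lines and the drop of RUBCNL from 24 to 48 h in DHL4 held in every alternative run. For these genes all alternatives kept the probe set of highest mean. On the other TFEB probe set, 221866_at, the fall at 6 h in DHL6 was not called in limma (-0.50, adjusted p = 0.117). Over all alternatives, 42 of 264 list counts moved by more than 1.5 times, and of 1168 values of the 8 other genes, 1003 kept direction and call, 86 lost the call, 16 gained it and 63 turned direction, none of these with an adjusted p below 0.05. The causes were not tested. Same-numbered arrays deviated together with a mean r of 0.0109 in DHL4 and -0.0307 in DHL6, so the numbers do not pair the arrays. With the replicate block, the list's lower calls in DHL4 at 48 h were 2 in place of 4, and TFEB there was -0.59 (adjusted p = 0.0674).

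RUBCNL in DHL6 at 48 h minus DMSO was 2.31 after quantile normalization, 1.75 without the 4 arrays of low upper quartile and 2.03 to 2.34 with 1 array left out. Its 48 h minus 24 h value in DHL6 was -0.59 without the 4 arrays.

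Of the list's higher calls, the 7 in DHL4 at 2 h were 14 after quantile normalization, 4 after centring, 1 when just the groups compared were fitted, 2 with a 1.5-fold minimum, 11 without the 4 arrays and 2 to 6 with 1 array left out. The 15 at 6 h were 6 to 13 and the 13 at 48 h were 6 to 11 with 1 array left out. In DHL6, the 7 at 2 h were 11 after quantile normalization and 12 without the 4 arrays, and the 4 at 6 h were 2 with only the compared groups and 2 to 5 with 1 array left out. The 12 at 24 h were 7 with the 1.5-fold minimum. The 18 at 48 h were 9 after centring, 10 with only the compared groups, 11 with the 1.5-fold minimum, 10 without the 4 arrays and 11 to 17 with 1 array left out.

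Of the lower calls, the 6 in DHL4 at 2 h were 2 to 7 with 1 array left out. The 8 at 6 h were 15 with only the compared groups, 4 with the 1.5-fold minimum and 5 to 8 with 1 array left out. The 16 at 24 h were 9 to 15 and the 4 at 48 h 0 to 3 with 1 array left out, and the latter were 1 on the probe sets of highest variance. In DHL6, the 13 at 6 h were 8 with only the compared groups, 7 with the 1.5-fold minimum and 7 to 16 with 1 array left out. The 17 at 24 h were 10 with the 1.5-fold minimum. The 18 at 48 h were 9 after quantile normalization, 9 with only the compared groups, 10 with the 1.5-fold minimum, 8 without the 4 arrays and 10 to 25 with 1 array left out. DHL4 DMSO replicates 1 and 2, DHL4 replicate 3 at 2 h and replicates 2 and 3 at 48 h, DHL6 DMSO replicates 2 and 3 and DHL6 replicate 3 at 6 h were among the single arrays behind these ranges.

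The values that turned direction lay no farther from 0 than -0.19, for ULK1 in DHL6 at 48 h without the 4 arrays. After centring they were, against DMSO, -0.040 for BECN1 and -0.016 for ULK1 in DHL4 at 2 h, -0.086 and -0.0028 for GABARAPL1 in DHL4 at 24 and 48 h, -0.041 for GABARAPL1 in DHL6 at 24 h, and -0.085 for GABARAPL1, -0.063 for ULK1 and -0.076 for LAMP1 in DHL6 at 48 h. For 48 h minus 24 h in DHL6 they were -0.044 for GABARAPL1 and -0.047 for MAP1LC3B. After quantile normalization they were -0.026 for ULK1 in DHL4 at 2 h, -0.062 for GABARAPL1 in DHL4 at 24 h, -0.028 for GABARAPL1 in DHL6 at 24 h, -0.072 for GABARAPL1, -0.059 for ULK1 and 0.11 for GABARAPL2 in DHL6 at 48 h, and -0.0435 for GABARAPL1 from 24 to 48 h in DHL6. Without the 4 arrays they were -0.085 for ULK1 in DHL4 at 2 h, 0.041 for BECN1 in DHL6 at 6 h, -0.19 for ULK1 and -0.078 for LAMP1 in DHL6 at 48 h and -0.16 for MAP1LC3B from 24 to 48 h in DHL6.

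With 1 array left out, the ranges that spanned 0 were, in DHL4 against DMSO, -0.16 to 0.22 for BECN1 and -0.12 to 0.19 for ULK1 at 2 h, -0.11 to 0.19 for ULK1 at 6 h and -0.0996 to 0.0994 for GABARAPL1 at 24 h. At 48 h they were -0.16 to 0.15 for ULK1, -0.24 to 0.037 for MAP1LC3B, -0.0032 to 0.071 for GABARAPL1 and -0.16 to 0.38 for SQSTM1, and for 48 h minus 24 h -0.067 to 0.13 for GABARAPL1. In DHL6 they were -0.077 to 0.059 for GABARAPL1, -0.00038 to 0.12 for GABARAPL2 and -0.11 to 0.011 for SQSTM1 at 2 h, -0.26 to 0.041 for BECN1 and -0.065 to 0.30 for MAP1LC3B at 6 h, and -0.12 to 0.13 for GABARAPL1 at 24 h. At 48 h they were -0.036 to 0.16 for ULK1, -0.026 to 0.086 for GABARAPL1 and -0.054 to 0.086 for LAMP1, and for 48 h minus 24 h -0.048 to 0.092 for MAP1LC3B and -0.10 to 0.14 for GABARAPL1. ULK1 and both GABARAPL1 probe sets lay near the lower end of the scale, where RMA values carry little signal over background.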
